A study of Mus musculus with 8 samples.

Results

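The 8 genes described here, Plin2, Plin3, Plin4, Btn1a1, Xdh, Cidea, Mfge8 and Hilpda, were chosen by symbol among the 27998 genes of the count matrices, for their link with lipid droplets and with the membrane that wraps milk fat. All 8 were found, each on 1 gene ID. They were followed in EpCAM-sorted mammary epithelial cells of 8 mice, 2 at each of 4 stages, sequenced as single cells in droplets with 1 library per mouse. The C57BL/6N females were nulliparous and 8 weeks old (NP), pregnant at gestation day 14.5 (G), nursing at lactation day 6 (L), or past involution (PI), with their pups weaned naturally 11 days before. The labels name no engineered allele or drug. By the study's record, both NP mice and the second PI mouse were in oestrus and the first PI mouse in dioestrus.

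Milk fat is made in alveolar cells as cytoplasmic lipid droplets, which take on coat proteins, move to the apical surface and are pushed out of the cell wrapped in plasma membrane, so that the fat leaves as a milk fat globule. Perilipins are droplet coats. Butyrophilin (Btn1a1) and xanthine oxidoreductase (Xdh) meet at the apical membrane around the leaving droplet, Cidea promotes droplet growth by lipid transfer between droplets, and lactadherin (Mfge8) is a secreted globule protein that also binds phosphatidylserine on dying cells. Hilpda, a hypoxia-inducible droplet protein, restrains the triglyceride lipase encoded by Pnpla2.

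Unique molecular identifiers (UMIs, 1 per captured transcript) were summed per mouse and per cluster of the deposited annotation, where a sum had 20 or more cells, and written as CPM, the counts scaled to a fixed total of UMIs per sum. Such sums give relative levels, and a change in 1 abundant transcript moves the CPM of all others. There were 25009 cells after quality control, 1449 to 5736 per library, with a median of 3770 to 9624 UMIs per cell. Summed basal markers fitted the cluster names used below, and alveolar and luminal markers did so only in part. Krt5, Krt14 and Acta2, which mark basal cells, summed to 6817 to 32454 CPM in C12, C13 and C14 and to 4647 CPM or less in every luminal cluster. Csn2, Wap, Lalba and Glycam1, which mark milk-making cells, summed to 195387 and 214196 CPM in C9 and to 21682 to 37248 CPM in C8 and C11. In C10, named alveolar progenitors, they summed to 1265 and 631 CPM. That was below C7 (1454 and 1766 CPM) and above basal C13 of the same mice (732 and 384 CPM). A list of 8 milk protein genes took 44.8% and 41.7% of all UMIs in C9, against 9.67% and 5.74% in C8. Krt8, Krt18 and Epcam, which mark luminal cells, summed to 1904 and 3140 CPM in C9, beside 2012 and 879 CPM of the basal markers. In the basal clusters these luminal markers summed to 1654 and 1201 CPM in C14 and to 5191 and 3451 CPM in C12 of NP mice. The clusters were called by the authors on these same transcripts, so differences between clusters are given as descriptions without a test. Tests compare stages within a cell class over mice, with 2 mice against 2. The classes are groups of these clusters, with most cells of a class at a stage in the same cluster. The tests therefore rest on the same calls.

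The RefSeq promoter table of build GRCm38.p6 listed windows for Plin2, Plin3, Plin4, Mfge8 and Hilpda. Cidea was left out of this search. For Plin2, Mfge8 and Hilpda, which had the largest rises of those tested among them in luminal progenitors after involution, the 250 bases before the transcript start are shown 5′ to 3′ on the strand of the gene. Capitals mark the core of the hypoxia response element, ACGTG or GCGTG on either strand. The windows lie at chr4:86670060-86670309 on the minus strand for Plin2, chr7:79149061-79149310 on the minus strand for Mfge8 and chr6:29272238-29272487 on the plus strand for Hilpda.
Plin2: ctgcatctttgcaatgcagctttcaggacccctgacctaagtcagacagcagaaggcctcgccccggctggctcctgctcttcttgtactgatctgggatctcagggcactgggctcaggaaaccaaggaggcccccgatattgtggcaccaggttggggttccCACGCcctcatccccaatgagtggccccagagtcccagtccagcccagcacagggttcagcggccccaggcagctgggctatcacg
Mfge8: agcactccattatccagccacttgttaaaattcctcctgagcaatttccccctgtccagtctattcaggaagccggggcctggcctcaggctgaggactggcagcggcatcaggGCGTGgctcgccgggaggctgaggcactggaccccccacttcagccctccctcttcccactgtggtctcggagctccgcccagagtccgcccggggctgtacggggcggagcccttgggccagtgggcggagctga
Hilpda: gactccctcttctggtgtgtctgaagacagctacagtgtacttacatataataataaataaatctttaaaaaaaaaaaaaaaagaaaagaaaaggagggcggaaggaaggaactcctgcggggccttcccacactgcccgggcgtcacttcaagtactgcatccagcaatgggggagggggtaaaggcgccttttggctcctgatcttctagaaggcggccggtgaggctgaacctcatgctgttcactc
The core was found 1 time before Plin2, 86 bases from the end of the window, 1 time before Mfge8 at 136 bases, and not in the Hilpda window shown. A second Hilpda window, at chr6:29272376-29272625, held it 3 times. Of 32851 promoter windows, 38.6% held that core. The STAT motif TTCNNNGAA (7.02% of windows) and the PPAR motif DR1, 2 copies of AGGTCA in the same direction with 1 base between them (0.0335%), were in none of the windows of the 5 genes. These matches describe letters in these windows only.

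The genes lie on 6 chromosomes of GRCm38 (GENCODE M21). Plin3 (56277476 to 56292873) and Plin4 (56100591 to 56109803) lie near each other on the minus strand of chromosome 17, which also carries Xdh (73883895 to 73950196). Plin2 lies on chromosome 4 (86648386 to 86670060), Btn1a1 on 13 (23456992 to 23465901), Mfge8 on 7 (79133768 to 79149060), Hilpda on 6 (29272488 to 29275446) and Cidea on 18 (67343604 to 67367785).

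The 8 genes did not share 1 pattern across the epithelial clusters. Cidea, Btn1a1 and Xdh peaked in lactating alveolar cells, Mfge8 and Hilpda in luminal progenitors after involution, and Plin4 in basal cells and cluster C15 of lactation. The peak of Plin2 depended on the scale, and Plin3 had the highest mean in alveolar progenitors of lactation. In the order of mean levels Cidea was highest in C9, the differentiated alveolar cells of lactation, at 913 CPM, and next in C7, the luminal progenitors of PI mice, at 171 CPM. The mice of these neighbours in the order did not overlap. Btn1a1 was highest in C11 (796 CPM), the alveolar progenitors of lactation, followed by C9 (565 CPM), again without overlap, while Xdh in C9 (257 CPM) and C11 (243 CPM) overlapped between mice. Plin2 was highest in C7 (1357 CPM) and next in C8 (1052 CPM), the differentiated alveolar cells of gestation, and C8 overlapped with C9 (864 CPM). With milk protein UMIs left out of the totals its order turned to C9 (1515 CPM, 1227 and 1804 in the mice), C7 (1377 CPM) and C8 (1140 CPM), and C9 and C7 overlapped. Mfge8 and Hilpda were highest in C7, at 5040 and 1125 CPM, and next in C1, the hormone-sensing progenitors of PI mice, at 2411 and 612 CPM. Without milk protein UMIs Mfge8 in C9 (2638 CPM) came before C1 (2428 CPM), with overlapping mice. Plin3 ran from 12.6 CPM in C12 of NP mice to 59.0 CPM in C11, whose mice lay above those of C3, the next in its order.

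**Figure D1:**
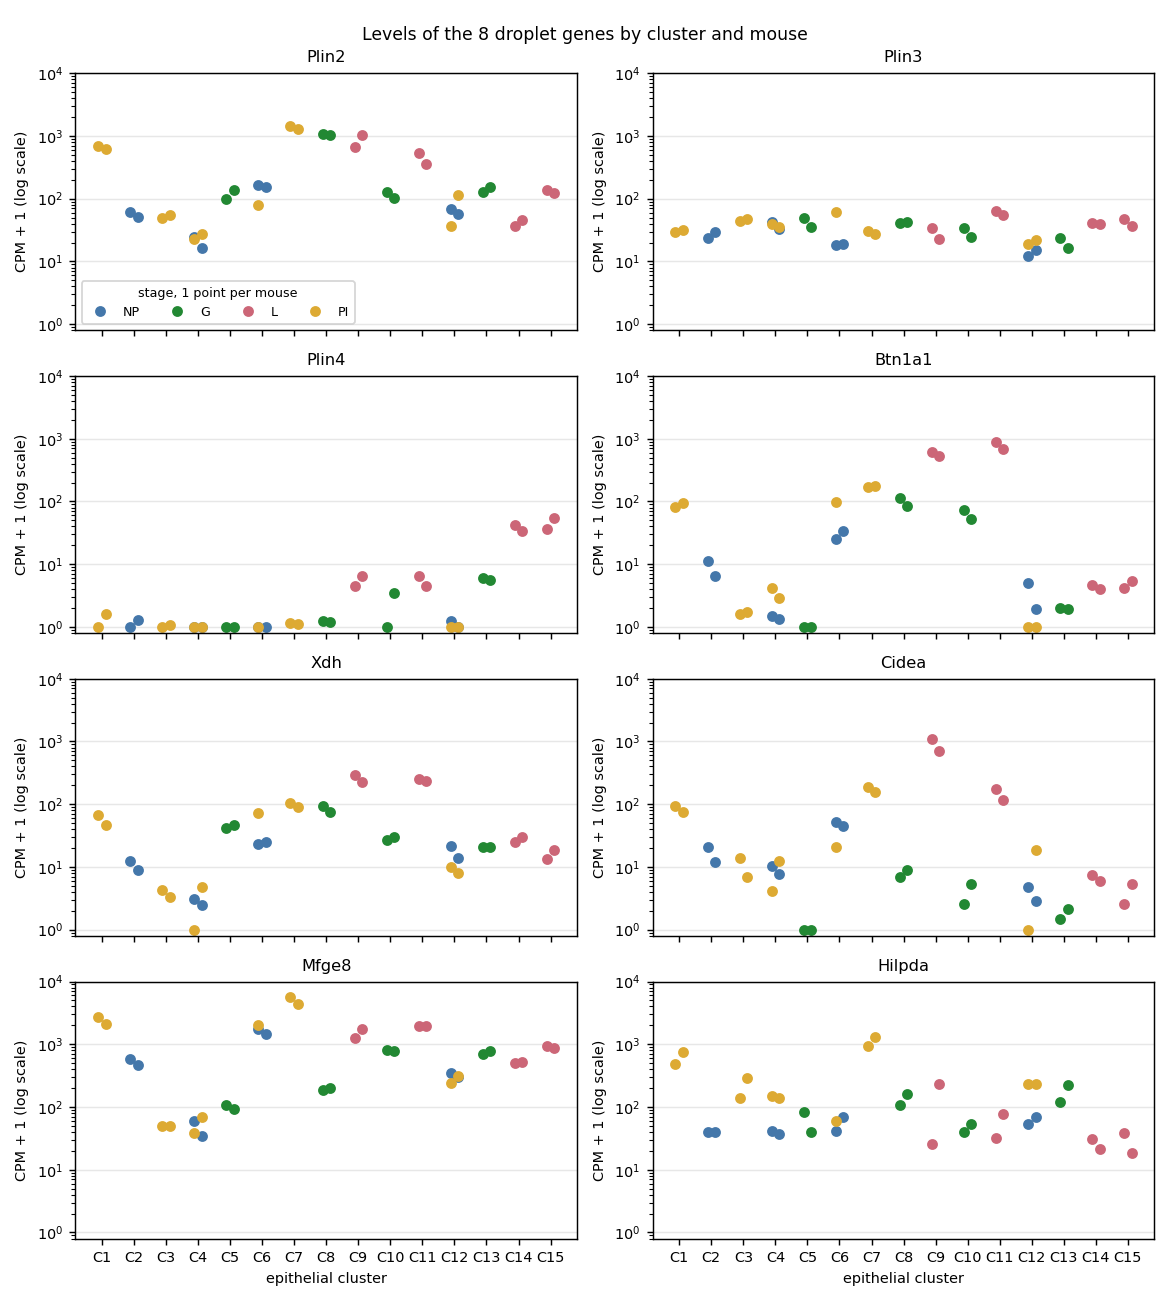
Levels of the 8 genes as CPM + 1 on a log axis in each epithelial cluster (C1 to C15), with 1 point per mouse and colours for the 4 stages. Cidea in C9 (1114 and 712 CPM) and Plin4 in C14 and C15 (32.5 to 53.4 CPM) stand above their levels in the other clusters, while the means of Plin3 run from 12.6 to 59.0 CPM.

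Over the 35 epithelial sums, Pearson's r of log levels was 0.83 between Plin2 and Xdh, 0.80 between Btn1a1 and Xdh and 0.78 between Btn1a1 and Cidea, and −0.40 between Plin4 and Hilpda. The sums share mice and milk transcripts and are not independent. Among 6268 genes, the pattern most like that of Btn1a1 was that of Csn3 (kappa-casein, r = 0.95), and the most like that of Plin4 was that of Casq2 (calsequestrin, a calcium store of muscle, r = 0.95). Xdh went most closely with Fads1, a fatty acid desaturase (r = 0.91), Cidea with Lrg1 (r = 0.91), Mfge8 with Hey1, a Notch target (r = 0.89), Plin2 with Pgp (r = 0.87), Plin3 with Pcbd2 (r = 0.81) and Hilpda with Ftl1, ferritin light chain (r = 0.70).

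The first comparison asks how the luminal progenitors (Lp, C6 in NP and C7 in PI mice with few others) of a gland that has lactated differ from those of a gland that has not. Of the 8 genes 7 were measured well enough to be tested, and all 7 rose, against 13.9% of 10766 genes called higher and 26.9% called in either direction (edgeR quasi-likelihood test, Benjamini-Hochberg adjusted p under 0.05). Plin4 was not tested, with 0 UMIs in both NP sums and 1 in each PI sum.

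Hilpda, the brake on triglyceride lipolysis, stood at 39.8 and 67.1 CPM in the NP mice and at 918 and 1307 CPM in the PI mice. The groups were far apart, with a log2 change of 4.48 (SE 0.26, adjusted p = 1.2e-06). Its target in lipolysis, Pnpla2, rose by 1.56 on the log2 scale (adjusted p = 3.7e-05).
The droplet coat Plin2 was at 166 and 151 CPM in NP and at 1405 and 1275 CPM in PI mice. That is a log2 change of 3.16 (SE 0.15, adjusted p = 2.9e-07), or from 158 ± 10.6 to 1340 ± 92.3 CPM (SD, n = 2), with no overlap. The ubiquitous coat Plin3 was at 17.5 and 17.8 CPM in NP and 30.6 and 26.2 CPM in PI mice, a log2 change of 0.77 (adjusted p = 0.0094) that was the smallest of the 7 and lost its call without the first NP mouse (adjusted p = 0.061) and in the DESeq2 Wald test (adjusted p = 0.069).

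The globule membrane pair moved too. Btn1a1 was at 23.8 and 32.3 CPM in NP and at 169 and 175 CPM in PI mice (log2 change 2.71, SE 0.16, adjusted p = 1.8e-06). Xdh was at 22.0 and 23.6 CPM in NP and 104 and 88.5 CPM in PI mice (2.16, SE 0.16, adjusted p = 7.3e-06). For both, every PI mouse lay above every NP mouse. Cidea went from 50.4 and 43.9 to 181 and 157 CPM (1.92, SE 0.14, adjusted p = 7.2e-06) and at both stages lay above the differentiated alveolar cells of gestation, at 6.01 and 7.92 CPM. Mfge8, which marks dying cells for uptake, was already high in NP progenitors at 1763 and 1435 CPM and reached 5555 and 4442 CPM in PI mice (1.73, SE 0.18, adjusted p = 6.2e-05).

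Milk protein genes moved in the same cells. They took 0.0770% and 0.144% of the UMIs of C6 in NP mice and 1.37% and 1.47% in C7, and the 4 alveolar markers summed to 8.75 and 20.3 CPM in C6 and to 1454 and 1766 CPM in C7, with 1 marker at 0 in each PI sum. With the milk protein genes left out the log2 changes of the 7 genes kept their calls. In the first PI mouse 22 cells were annotated to C6 rather than C7. Their Plin2 level was 79.1 CPM, their Hilpda 59.3 CPM and their Cidea 19.8 CPM, near or below C6 of the NP mice, while their Btn1a1 was 98.9 CPM and their Xdh 72.5 CPM, above it. Their Mfge8 was 2037 CPM and their Plin3 59.3 CPM, also above C6 of the NP mice. These 22 cells gave 151721 UMIs in all, of which 3 were of Cidea.

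The pathway around the members moved in parts. Of 16 further genes of lipid droplets and lipolysis, 10 were tested in Lp and 7 rose and 0 fell, with a median log2 change of 1.27 against −0.02 over all genes. Hsd17b11, a droplet-associated dehydrogenase, rose by 1.70 and G0s2, another inhibitor of the lipase, by 1.40. Of 9 genes of the globule membrane and its cargo, 7 were tested and 6 rose, led by the fatty acid receptor Cd36 (3.27, adjusted p = 0.00073) and the transporter Abcg2 (2.10, adjusted p = 4.9e-05). Of 11 genes of triglyceride assembly, 8 were tested, 0 rose and Lpin2 fell by 0.56 on the log2 scale.

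The same comparison in hormone-sensing progenitors (Hsp, C2 in NP and C1 in PI mice), luminal cells with both hormone receptor and progenitor markers, gave 6 of 7 tested genes higher, where 9.58% of 10692 genes were called higher and 16.6% in either direction. Hilpda went from 38.6 and 38.7 to 471 and 742 CPM (3.97, SE 0.23, adjusted p = 5.4e-07). Plin2 went from 60.4 and 49.99 to 678 and 617 CPM (3.53, SE 0.15, adjusted p = 7.4e-08). The PI mice of both genes lay well above the NP mice. Btn1a1 went from 10.0 and 5.49 to 82.0 and 94.7 CPM (3.45, SE 0.21, adjusted p = 9.4e-07). Xdh rose by 2.44 and Cidea by 2.38 (adjusted p = 2e-05 each), and Mfge8 by 2.17 (adjusted p = 1.4e-05). Plin3, at 22.4 and 28.03 in NP and 29.7 and 30.1 CPM in PI mice, did not pass (0.26, adjusted p = 0.38). Of the further genes, Cd36 rose by 4.58 (adjusted p = 4.1e-05) and G0s2 by 2.38 (adjusted p = 0.0021), while Lpin2 and Dgat2, a last-step triglyceride synthase, fell by 0.64 and 0.56 on the log2 scale.

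Cluster C1 lay between the differentiated hormone-sensing cells (C3) and the luminal progenitors (C7) of the same mouse. On a scale with C3 at 0% and C7 at 100%, the CPM of Plin2 in C1 was at 46.9% and 46.0% in the PI mice, Mfge8 at 47.9% and 46.6%, Cidea at 46.6% and 44.8%, Hilpda at 42.8% and 44.5%, Btn1a1 at 47.6% and 54.0% and Xdh at 62.4% and 51.0%. Thus 6 genes lay near the middle in both mice. Cells of C1 had a median of 16314 and 11580 UMIs, against 6484 and 5579 in C7 and 7179 and 5638 in C3, and the part of droplets that held more than 1 cell was not tested. In NP mice, on the matching scale from C4 to C6, C2 was at 26.1% and 25.6% for Plin2 and 31.0% and 30.4% for Mfge8. The NP mice differed more for Btn1a1 (41.0% and 16.1%), Xdh (46.8% and 29.7%) and Cidea (25.3% and 11.5%), and no place is given for Hilpda, which was alike in C4 and C6 of the first NP mouse (39.9 and 39.8 CPM). Cells of C2 had a median of 16399 and 16877 UMIs, against 10163 and 10309 in C4 and 7768 and 6597 in C6. The part of droplets with more than 1 cell was not tested there either.

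In differentiated hormone-sensing cells (Hsd, C4 in NP and C3 in PI mice), which carry the oestrogen and progesterone receptors, 2 of 7 tested genes rose, where 7.64% of 11994 genes were called higher and 14.3% in either direction. Hilpda was at 40.4 and 36.7 CPM in NP and 139 and 282 CPM in PI mice (2.43, SE 0.29, adjusted p = 0.00029). Plin2 was at 23.5 and 15.2 CPM in NP and 45.8 and 53.9 CPM in PI mice (1.34, SE 0.20, adjusted p = 0.0011). Both genes separated the stages, at Plin2 levels far under those of the progenitors. Mfge8 was at 57.6 and 33.9 CPM in NP and 48.5 and 48.7 CPM in PI mice and the groups overlapped (0.05, adjusted p = 0.91). Cidea had 9.32 and 6.66 CPM in NP and 12.1 and 6.17 CPM in PI mice, also overlapping (−0.02, adjusted p = 0.97). Btn1a1 and Xdh had at most 3.01 CPM. Muc1, an apical mucin, rose by 2.54 on the log2 scale in these cells (adjusted p = 2.2e-05) and Folr1 by 1.77 (adjusted p = 5e-04).

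**Figure D2:**
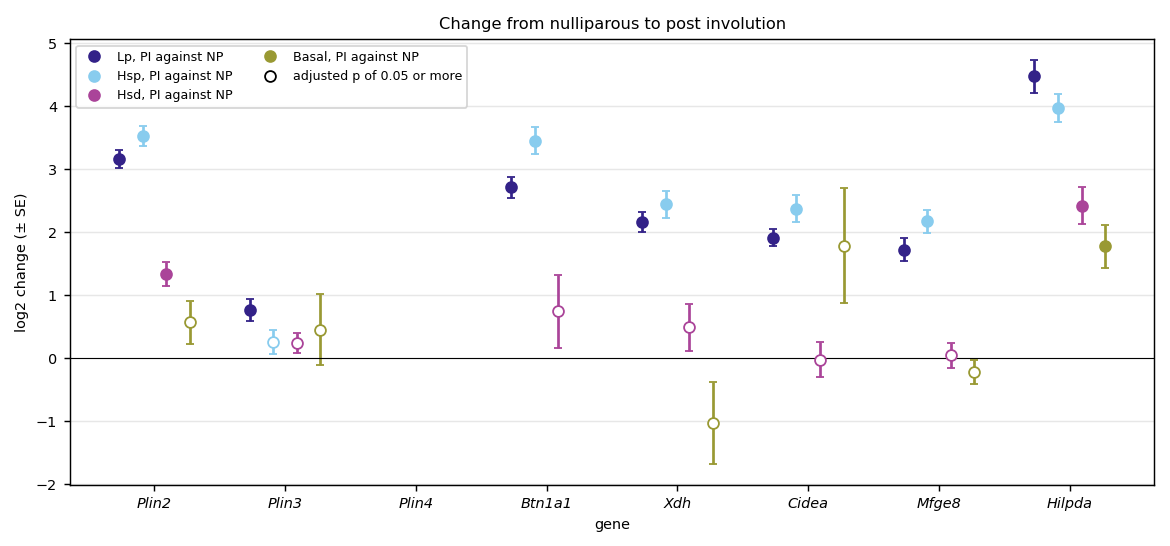
Log2 change from NP to PI (± SE, edgeR, 2 mice against 2) of each gene in luminal progenitors (Lp), hormone-sensing progenitors (Hsp), differentiated hormone-sensing cells (Hsd) and basal cells, filled where the adjusted p was under 0.05. Hilpda is filled in all 4 classes (4.48, 3.97, 2.43 and 1.78), while Cidea and Mfge8 are filled in Lp and Hsp and lie near 0 in Hsd. Plin4 is not shown, nor Btn1a1 in basal cells.

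Whether the change differed between Lp and Hsd was tested in 1 fit with the mouse as a term. The rise was larger in Lp for 6 of 7 genes, where 10.4% of 11743 genes were called in that direction and 20.2% in either. The difference of log2 changes was 1.78 for Plin2 (SE 0.18, adjusted p = 4.5e-07) and 1.60 for Mfge8 (SE 0.16, adjusted p = 4.5e-07). For Btn1a1 it was 1.999 with an adjusted p of 0.037, resting on 3 to 12 UMIs in the Hsd sums, and the call was lost without the mouse term and with scaling by total UMIs. Plin3 did not pass (0.50, adjusted p = 0.15).

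Basal cells of PI mice were few, at 28 and 59 cells. Of 8 genes tested there 1 was called against NP mice, and higher, where 4.47% of 11870 genes were called and 1.92% called higher. Hilpda was at 53.4 and 67.4 CPM in NP and 236 and 221 CPM in PI mice (1.78, SE 0.34, adjusted p = 0.005), on 27 and 69 UMIs, and the call was lost without either PI mouse. Plin2 was at 66.3 and 55.1 CPM in NP and 35.0 and 128 CPM in PI mice, so the PI mice lay on both sides of the NP mice (adjusted p = 0.39). Btn1a1 and Plin4 had 0 UMIs in both PI sums. In C12, which held most of these cells, immune markers summed to 851 and 10.6 CPM in PI and 88.8 and 69.1 CPM in NP mice, with 2 of 3 at 0 in each PI sum. The second PI mouse had 754 CPM of hormone-sensing markers (8.96 CPM in the first, 227 and 259 CPM in NP mice). Its luminal markers summed to 6556 CPM (2949 CPM in the first, 5191 and 3451 CPM in NP mice) beside 6817 CPM of basal markers. In hormone-sensing cells (C3) of the PI mice Hilpda was at 138 and 287 CPM, and the part of other cells in its basal level was not tested.

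From gestation to lactation the alveolar cells take up milk secretion. In the differentiated alveolar cells (Avd, C8 in G and C9 in L mice with few others; 1926 and 1818 cells in G, 43 and 48 in L), 5 of 8 genes rose, where 9.54% of 11860 genes were called higher and 18.7% in either direction. Cidea was at 6.01 and 7.92 CPM in G and at 1105 and 710 CPM in L mice, a log2 change of 7.92 (SE 0.29, adjusted p = 3.9e-09). No other member moved as far. The share of cells with a Cidea UMI after thinning each cell to 1000 UMIs was 0.727% and 0.550% in C8 and 52.4% (95% exact interval 36.4% to 68.0%) and 46.8% (32.1% to 61.9%) in C9. In myoepithelial cells of the same L mice (C14), it was 0.625% and 0.515%. Unthinned, it was 6.96% and 8.09% in C8 and 85.7% and 89.4% in C9. The median cell of C8 had 10900 and 8676 UMIs, and that of C9 had 11602 and 16271.

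Btn1a1 went from 115 and 82.8 to 603 and 532 CPM (3.41, SE 0.22, adjusted p = 4.2e-07) and Xdh from 93.1 and 73.1 to 286 and 227 CPM (2.51, SE 0.19, adjusted p = 2.1e-06). Both globule membrane genes separated the stages. Mfge8 was low in C8, at 183 and 199 CPM, and reached 1250 and 1742 CPM in L mice (3.88, SE 0.25, adjusted p = 3.3e-07). Plin2 was already high in gestation, at 1060 and 1044 CPM, and stood at 674 and 1047 CPM in lactation, so that the mice overlapped (0.62, SE 0.24, adjusted p = 0.088). Plin2 was called higher at equal depth (0.85, adjusted p = 0.023) and without the low-count filter (0.53, adjusted p = 0.048). Its change ran from 0.18 to 0.93 with 1 mouse left out, the highest without the first L mouse. Hilpda was split between the L mice, at 24.2 and 228 CPM, around the G mice at 106 and 158 CPM (0.93, adjusted p = 0.22). Without the second L mouse it was lower in lactation (−1.62, adjusted p = 0.019) and without the first it was called higher (1.73, adjusted p = 5.7e-05). Plin4 was called (5.29, adjusted p = 0.0026) on 2 and 4 UMIs in the L sums, while the basal markers summed to 111 and 107 CPM in C8 and to 2012 and 879 CPM in C9 with none of 3 at 0, and the part of these cells in the Plin4 call was not tested.

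Milk protein UMIs weigh on these values. The log2 changes above come with TMM scaling, under which the median change of all genes was −0.14. With division by total UMIs alone, chosen after seeing the data, 551 genes were called higher and 5545 lower in place of 1131 and 1088, and the median of all genes was −1.05. Then Cidea rose by 7.02, Mfge8 by 2.97, Btn1a1 by 2.52 and Xdh by 1.62, all still called, while Plin2 (−0.29, adjusted p = 0.25) and Plin3 (−0.56, adjusted p = 0.083) turned sign. No direction can therefore be given for Plin2 and Plin3 in these cells.

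Of the further genes, 7 of 8 tested genes of the globule membrane and cargo rose in Avd, with a median log2 change of 2.35 against −0.14 for all genes. They were led by the phosphate carrier Slc34a2 (6.25, adjusted p = 2.9e-07), the fatty acid binding protein Fabp3 (3.29, adjusted p = 5.6e-05) and Folr1 (3.26, adjusted p = 6.7e-07). Of 9 tested genes of triglyceride assembly 4 rose, among them Dgat1 (1.76, adjusted p = 0.0012). Of 11 tested droplet and lipolysis genes 4 rose and 1 fell, with G0s2 up (2.87, adjusted p = 0.00092), Rab18, a small GTPase on droplets, up (2.26, adjusted p = 4.2e-06), and Acsl3, a droplet acyl-CoA synthetase, lower (−1.79, adjusted p = 2e-04).

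In alveolar progenitors (Avp, C10 in G and C11 in L mice), 6 of 7 tested genes rose, where 15.7% of 8446 genes were called higher and 28% in either direction. Btn1a1 went from 72.7 and 51.2 to 869 and 681 CPM (3.94, SE 0.22, adjusted p = 3.7e-06). Xdh went from 26.0 and 28.7 to 247 and 227 CPM (3.39, SE 0.18, adjusted p = 2.2e-06). Cidea went from 1.53 and 4.37 to 175 and 113 CPM (5.79, SE 0.39, adjusted p = 9.2e-06). These 3 genes were thus raised in lactation whether the cells were called differentiated or not. Plin2 went from 125 and 102 to 514 and 347 CPM (2.22, SE 0.22, adjusted p = 1e-04), Mfge8 from 813 and 775 to 1908 and 1945 CPM (1.56, adjusted p = 8.6e-05) and Plin3 from 32.9 and 23.1 to 62.0 and 52.9 CPM (1.34, adjusted p = 0.0041). In no case did the stages overlap. Hilpda, at 39.0 and 51.8 CPM in G and 35.5 and 75.9 CPM in L mice, did not pass (0.53, adjusted p = 0.26, but 1.00 with adjusted p = 0.0026 without the first L mouse), and Plin4 was not tested. Basal markers summed to 126 and 196 CPM in C10 and 4647 and 3323 CPM in C11, and immune markers (Cd74, Ptprc, Cd72) to 28.3 and 32.4 against 294 and 230 CPM. Their part in these changes was not tested. In the basal cells of L mice Btn1a1 and Cidea were at 6.39 CPM or less. Xdh was there at 24.2 and 29.3 CPM and Plin2 at 35.2 and 44.2 CPM. Plin3 was at 39.5 and 38.7 CPM and Mfge8 at 506 and 529 CPM.

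**Figure D3:**
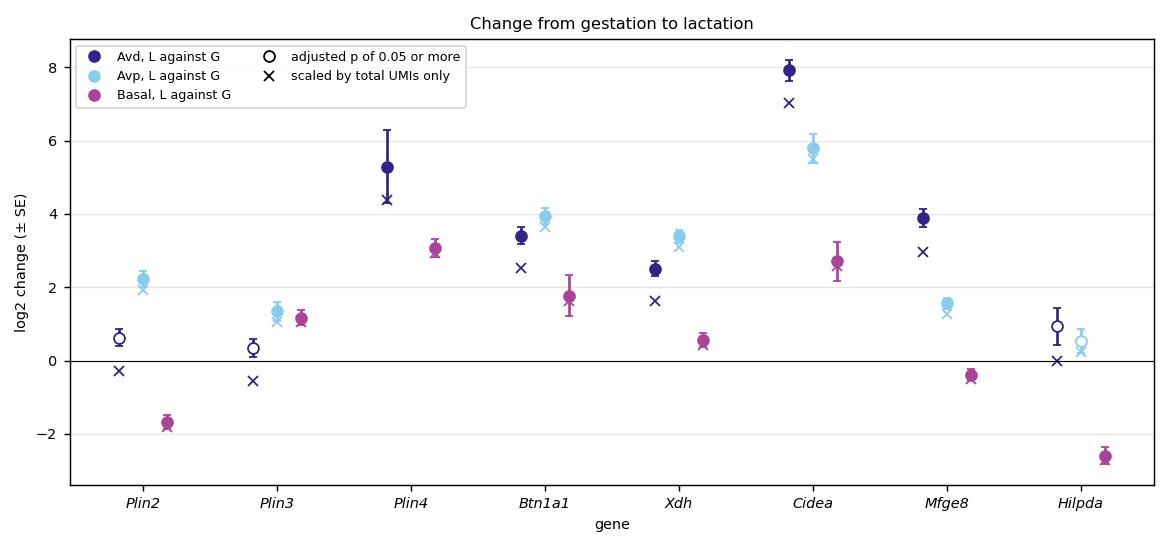
Log2 change from G to L (± SE, edgeR, 2 mice against 2) of each gene in differentiated alveolar cells (Avd), alveolar progenitors (Avp) and basal cells, filled where the adjusted p was under 0.05, with crosses for scaling by total UMIs alone. Cidea has the tallest points in Avd (7.92) and Avp (5.79) and Plin4 in basal cells (3.08, with Cidea at 2.70), and in Avd the crosses of Plin2 and Plin3 lie below 0.

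Within a mouse the 2 alveolar clusters differed by gene. In gestation, Plin2 in C8 was above C10 by 3.09 and 3.35 on the log2 scale, Xdh by 1.84 and 1.35, Hilpda by 1.44 and 1.61 and Btn1a1 by 0.66 and 0.70. Mfge8 went the other way, at −2.15 and −1.96, so the differentiated cells of gestation held less of it than the progenitors of the same mouse. In lactation Cidea was higher in C9 than in C11, by 2.66 and 2.63, and with milk protein UMIs left out of the totals by 3.41 and 3.32. Btn1a1 was lower in C9 by CPM (−0.57 and −0.40) and higher without milk protein UMIs (0.18 and 0.29), so its order between these clusters depended on the scale, as did that of Mfge8 (−0.62 and −0.17, against 0.12 and 0.52).

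Shares of cells with a UMI, each cell thinned to 1000 UMIs, show how the levels were spread over cells. Plin2 was seen in 59.8% and 59.0% of C8 cells, 56.8% and 58.1% of C7 cells and 45.2% and 63.8% of C9 cells, against 15.6% and 12.7% in C6 of NP mice and 2.87% and 4.19% in C14. Unthinned, these shares were 97.5% and 96.6% in C8, 89.4% and 91.7% in C7 and 54.8% and 47.2% in C6. Mfge8 was seen in 97.5% and 95.4% of C7 cells and in 17.3% and 17.4% of C8 cells. Btn1a1 was seen in 54.2% and 41.6% of C11 cells and 42.9% and 44.7% of C9 cells, and in 0.323% and 0.322% of C14 cells of the same mice, where Csn2 was seen in 26.5% and 24.9%. Hilpda was seen in 46.6% and 59.5% of C7 cells and in 10.2% and 19.8% of C3 cells.

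**Figure D4:**
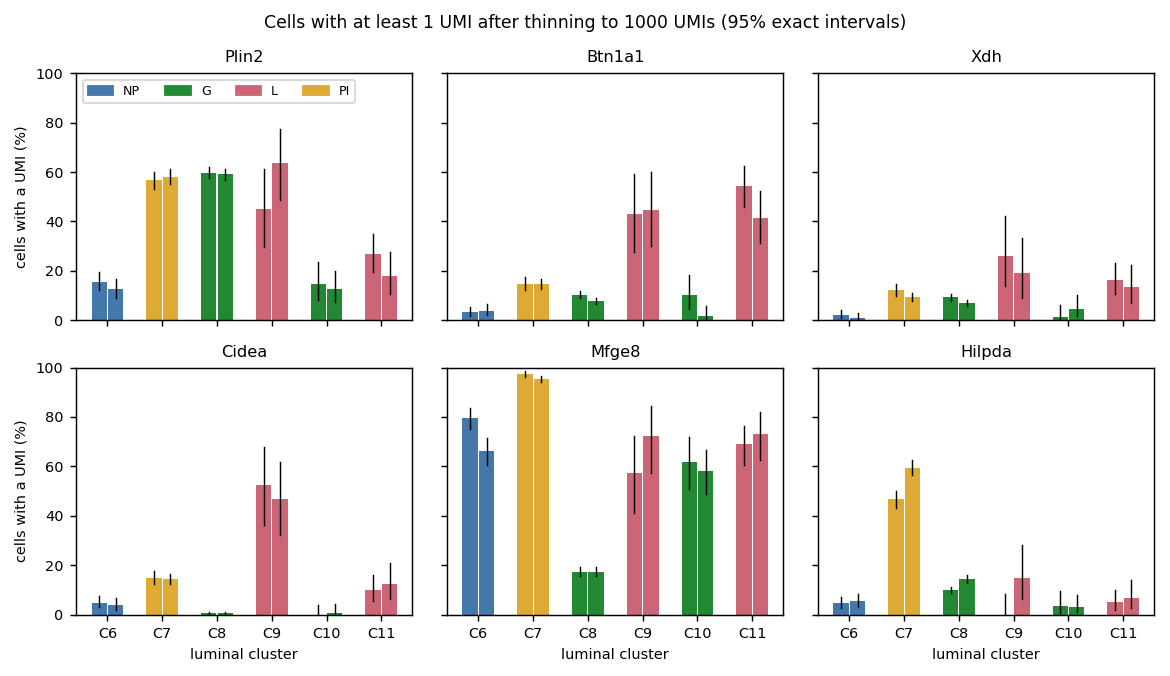
Percent of cells with at least 1 UMI of 6 genes after thinning every cell to 1000 UMIs, in luminal clusters C6 to C11 (C6 for the NP mice), with 1 bar per mouse coloured by stage and 95% exact binomial intervals that cover counting error only. Cidea bars reach 52.4% and 46.8% in C9 and stay under 1% in C8 and C10, and Mfge8 is at 17.3% and 17.4% in C8.

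Basal cells (C12 in NP, C13 in G, C14 in L mice), which contract to eject milk, followed another course. From NP to G, 5 of 8 genes rose, where 21% of 11870 genes were called higher and 39.9% in either direction. Plin2 went from 66.3 and 55.1 to 127 and 151 CPM (1.26, SE 0.20, adjusted p = 0.00013), Mfge8 from 352 and 308 to 704 and 771 CPM (1.24, adjusted p = 1e-05) and Hilpda from 53.4 and 67.4 to 117 and 221 CPM (1.58, adjusted p = 9.2e-05). Plin3 rose by 0.69 on the log2 scale (adjusted p = 0.035), a call lost without the first NP or the first G mouse, in the DESeq2 Wald test (adjusted p = 0.053) and with total UMIs (adjusted p = 0.057). At equal depth, with every sum thinned to the smallest total, Plin2 lost its call (1.10, adjusted p = 0.091). For each of these 4 genes the stages did not overlap. Other markers moved between these clusters. Luminal markers (3 genes) summed to 5191 and 3451 CPM in C12 of NP and 1213 and 1315 CPM in C13, and hormone-sensing markers (3 genes) to 227 and 259 against 16.4 and 13.95 CPM, with none at 0. The 4 alveolar markers summed to 5.41 and 4.57 CPM in NP, with 1 and 2 at 0, and to 732 and 384 CPM in G mice. The part of these transcripts in the changes was not tested. Plin4, a perilipin of adipocytes and muscle, had 1 UMI in all NP basal cells and 40 in the G ones, a ratio of 30.6 in CPM with a 95% counting interval from 5.19 to 1239 (called, adjusted p = 0.00012).

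From G to L all 8 genes were called in basal cells, on a background of 50.1% of 11870 genes (25.2% higher and 24.9% lower), and they went in both directions. Plin4 went from 5.03 and 4.49 to 40.9 and 32.5 CPM (3.08, SE 0.24, adjusted p = 5.1e-08). Plin3 went from 22.9 and 15.3 to 39.5 and 38.7 CPM (1.17, SE 0.19, adjusted p = 9.7e-05). These 2 coats rose while Plin2 fell, from 127 and 151 to 35.2 and 44.2 CPM (−1.68, SE 0.19, adjusted p = 2e-06), a call lost at equal depth (−0.88, adjusted p = 0.15). Hilpda fell with it, from 117 and 221 to 30.4 and 20.8 CPM (−2.59, SE 0.24, adjusted p = 1.7e-07), and Mfge8 went from 704 and 771 to 506 and 529 CPM (−0.38, adjusted p = 0.04). Thus the stages differed without overlap for every gene. Xdh rose by 0.55 (adjusted p = 0.026), Btn1a1 by 1.77 (adjusted p = 0.015, on 4 and 5 UMIs in G) and Cidea by 2.70 (adjusted p = 0.00045, on 2 and 6 UMIs in G). With 1 mouse left out, 5 to 7 of the 8 genes were called. Btn1a1 lost its call without either G mouse, Xdh without either G mouse or the second L mouse, and Mfge8 without any 1 of the 4 mice. Calls were also lost for Btn1a1 in the DESeq2 Wald test (adjusted p = 0.058), for Xdh with total UMIs (adjusted p = 0.085) and for Mfge8 with DESeq2 size factors (adjusted p = 0.073) and at equal depth (−0.22, adjusted p = 0.56). Of the further genes Cd59a, a complement inhibitor, rose by 3.03 (adjusted p = 2.8e-10), Fabp3 by 2.22 (adjusted p = 1e-06), and Soat1 and Acsl3 went down (−1.54 and −1.53, adjusted p = 7e-07 and 8.6e-08).

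Plin4 was also high in C15, a small cluster of lactation, at 35.7 and 53.4 CPM, where the adipocyte list summed to 4272 and 4859 CPM. Nearly all of that sum was Fabp4, at 4260 and 4828 CPM, and Adipoq and Cidec were at 0 in both mice, while Plin1 had 4 and 6 UMIs. The pericyte markers Rgs5, Des, Cspg4 and Pdgfrb summed to 5441 and 4819 CPM in C15, with none at 0. In C14 the adipocyte list summed to 343 and 162 CPM, mostly Fabp4 (262 and 76.2 CPM) and Lep (81.4 and 85.0 CPM). Each other gene of the list had 6 UMIs or fewer there in each mouse.

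Because free RNA in droplets can place milk transcripts in any cell, the basal level of each gene was set against the Avd level of the same mouse. For the 8 milk protein genes that ratio had a median of 2.13% and 1.56% in the G mice and 0.35% and 0.39% in the L mice, with highest values of 9.27%, 2.49%, 1.86% and 3.33%. Btn1a1 lay within the range or below it, at 0.88% and 1.35% in G and 0.61% and 0.57% in L mice, and Cidea in L mice at 0.58% and 0.71%. In lactation both lay above the median of the milk genes and under their highest value. The part of free RNA in their basal rises was not tested. The ratio of Xdh was above the milk genes, at 21.1%, 27.6%, 8.46% and 12.9%, and so was that of Plin2, at 11.99%, 14.4%, 5.23% and 4.22%. Set against both alveolar classes, Plin2 of the second L mouse was at 6.60%, within the milk genes (highest 7.15%). Plin4 was at 605% or more in all 4 mice, with more in basal than in alveolar cells throughout. Mfge8 turned over between stages, from 385% and 387% in G to 40.5% and 30.4% in L mice.

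**Figure D5:**
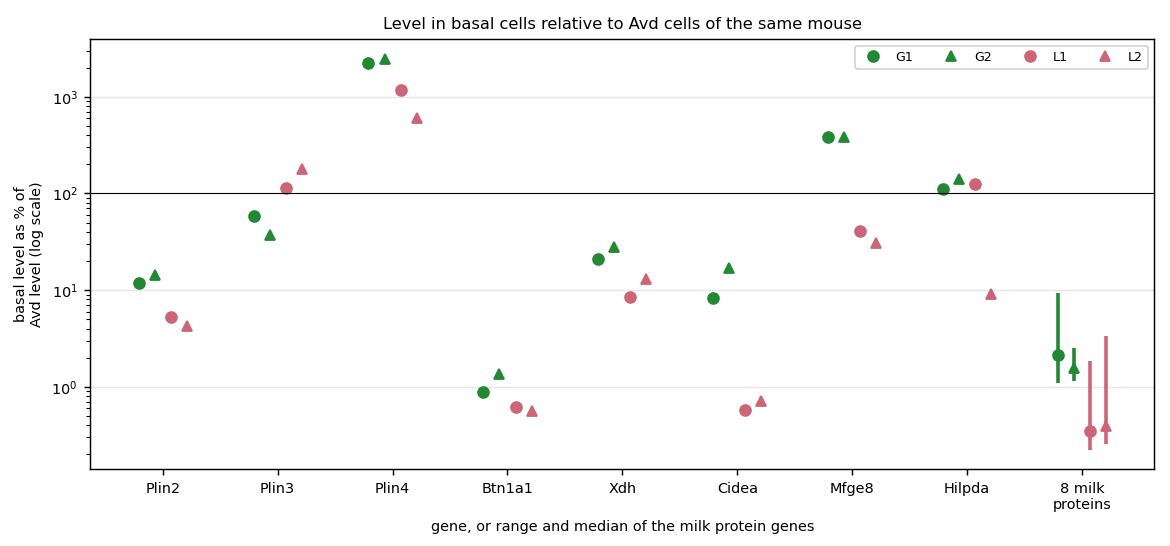
Level in basal cells as a percent of the level in differentiated alveolar cells of the same mouse, on a log axis, for the G and L mice, beside the range (line) and median (point) of 8 milk protein genes. Btn1a1 lies within or below the range of the milk protein genes and Cidea of L mice within it, while Plin4 lies at 605% or more in all 4 mice.

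Whether the change from G to L differed between Avd and basal cells was tested in 1 fit. The change was more positive in Avd for 6 of 8 genes, where 9.87% of 11664 genes were called in that direction and 19.3% in either. The difference was 5.21 for Cidea (SE 0.77, adjusted p = 1.9e-05), 4.26 for Mfge8 (SE 0.22, adjusted p = 1.6e-13) and 2.31 for Plin2 (SE 0.27, adjusted p = 7.9e-07). Plin4 (2.21, adjusted p = 0.074) and Plin3 (−0.82, adjusted p = 0.067) did not pass. With total UMIs Plin3 was called (−1.61, adjusted p = 0.00029). Btn1a1 (1.69) lost its call with total UMIs (adjusted p = 0.17) and without the mouse term (adjusted p = 0.096).

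Outside the epithelium Plin2 was at 332 to 636 CPM in C17 of the G and L mice, where immune markers summed to 29801 CPM or more. Hilpda was at 403 and 443 CPM in C19 of the G mice and 109 and 129 CPM in that of the L mice. The mean of Plin3 in C18 was 70.4 CPM in G and 69.0 CPM in L mice, above its means in all epithelial clusters. Cidea and Btn1a1 were at 9.33 CPM or less in C17, C18 and C19, and Mfge8 was at 60.3 to 392 CPM there.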

How the data were processed

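Mammary epithelial cells of 8 mice were profiled with the 10x Chromium platform. The count matrices, as deposited, give UMIs of each gene in each barcode as whole numbers with no scaling between libraries. They come from the authors' Cell Ranger runs, and the submitters' processing notes name STAR and the mm10 build. The deposited annotation of the authors gives each cell its library, quality flags, cluster and mitochondrial share of UMIs as a fraction. Clusters were taken as annotated. Barcodes in more than 1 library (791 of 25806) were left out with cells that failed the authors' flags, and 1 annotated cell had no barcode.

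The 8 genes, the gene lists and the comparisons were chosen with earlier results of these data known. Counts were summed per mouse and cluster, or per class (Avd C8 and C9, Avp C10 and C11, Lp C6 and C7, Hsp C1 and C2, Hsd C3 and C4, basal C12 to C14), with at least 20 cells. Tests used edgeR 4.0.16 in R 4.3.3 (TMM, filterByExpr with a minimum count of 10 and total of 15, quasi-likelihood test, Benjamini-Hochberg adjustment at 0.05) over all genes of the 2 stages compared, with all 8 libraries in the basal fit. DESeq2 1.42.0 was an alternative. Further genes named are at most 3 per list and comparison, those past the test with the largest change, and the closest pattern per gene. An exact permutation test of 2 mice against 2 cannot go below 0.333. On simulated counts 46.5% to 96.9% of 4-fold changes and 4.04% to 22% of 2-fold changes were recovered over the comparisons. Same-numbered mice share only a number. Intervals and limits cover counting error only. Fewer cells of a kind within a class and less RNA per cell cannot be told apart.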

Additional observations from a re-analysis of the deposited data

Results flagged for a closer look

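The changes of several genes differed between cell classes in a test of the difference itself (edgeR quasi-likelihood test with the mouse as a term, Benjamini-Hochberg adjusted p under 0.05, 2 mice per stage). From NP to PI the log2 change was larger in luminal progenitors than in differentiated hormone-sensing cells by 2.13 for Hilpda, 1.999 for Btn1a1, 1.95 for Cidea, 1.78 for Plin2, 1.60 for Mfge8 and 1.60 for Xdh. From G to L it was more positive in differentiated alveolar than in basal cells by 5.21 for Cidea, 4.26 for Mfge8, 3.39 for Hilpda, 2.31 for Plin2, 1.99 for Xdh and 1.69 for Btn1a1. For Btn1a1 both differences lost their call under scaling by total UMIs, at 1.90 (adjusted p = 0.052) and 0.90 (adjusted p = 0.17). The basal levels of Btn1a1 and Cidea in lactation lay within the range of ratios of the milk protein genes, and the Hilpda difference of G to L goes with an L mouse at 24.2 and another at 228 CPM in alveolar cells.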

How the results depend on the processing

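Of 794 member changes recomputed under an alternative, 730 kept their direction and side of the threshold, 40 lost a call, 8 gained one and 16 changed sign. Calls of all genes went from 2219 to 6096 in Avd and from 2250 to 4965 in the test of Avd against basal cells with total UMIs only, an alternative chosen after seeing the data, where Plin2 (−0.29) and Plin3 (−0.56) in Avd and Cidea in Hsd (0.034) changed sign. Under that scaling higher and lower calls were 913 and 1981 in Avp (1325 and 1041 with TMM), 1205 and 1733 in Lp (1494 and 1398), 343 and 193 in basal PI against NP (228 and 302), 867 and 1601 for Lp against Hsd (1219 and 1155) and 548 and 4417 for Avd against basal cells (1151 and 1099). DESeq2 size factors gave 295 and 188 in basal PI against NP and 1377 and 781 for Avd against basal cells. With glmTreat (log2 change over 1, adjusted p under 0.01) the calls were 342 in Avd, 352 of 2366 in Avp, 231 of 2892 in Lp, 127 of 1778 in Hsp, 121 of 1714 in Hsd, 479 of 4739 in basal G against NP, 901 of 5949 in basal L against G and 18 of 530 in basal PI against NP. Members called were then 1 in Hsd and 1, 3 and 0 in the basal comparisons, a stricter test by its construction. The DESeq2 Wald test called 1144 genes in Avp, 1589 in Lp and 823 in Hsp, with Cidea in Hsd at 0.070. At equal depth, with fewer UMIs, fewer genes were tested. Calls were 1180 of 5418 genes in Avd (21.8%, against 18.7% in the main fit). In basal G against NP, L against G and PI against NP they were 349, 607 and 217 of 2571 genes. These are 13.6%, 23.6% and 8.44%, against 39.9%, 50.1% and 4.47% in the main fit. Members called were then 2 and 1 in basal G against NP and L against G. Mfge8 in Hsd (−0.088) and Plin2 in basal PI cells (−0.38) changed sign. Without a low-count filter 877 of 19205 genes (4.57%) were called in basal PI against NP. Without the mouse term 1159 genes were called in place of 2374 in the test of Lp against Hsd. The causes of the other shifts were not tested.

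With 1 mouse left out, calls ranged from 609 to 1886 in Avd, 1704 to 2472 in Lp, 466 to 1960 in Hsp, 928 to 2458 in Hsd, and in basal cells from 2558 to 3869 (G against NP) and 106 to 373 (PI against NP). Members called ranged from 5 to 7 in basal L against G and 0 to 1 in basal PI against NP. Log2 changes ranged from −1.62 to 1.73 for Hilpda in Avd, −0.043 to 1.00 for Hilpda in Avp, −0.36 to 0.49 for Cidea and −0.26 to 0.44 for Mfge8 in Hsd, −1.79 to 0.28 for Btn1a1 in basal G against NP, and −1.02 to 0.93 for Plin2 and −7.36 to 2.47 for Cidea in basal PI against NP. The −7.36 of Cidea came without the second PI mouse, when the PI sum left had 0 Cidea UMIs, against 5 in the second PI mouse. No size of change can be read from it. Where 1 mouse remained at a stage, it was assumed to vary like the others.

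The replicate block, with numbers that correlated by −0.05 to 0.07 in their deviations, turned Cidea in Hsd to 0.049, changed no other sign or call of a member, and moved calls to between 0.941 and 1.20 times the number without it.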
